A study of Mus musculus with 18 samples.

Results

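The muscle myosin light chains Myl1, Myl2, Myl3, Myl4, Mylpf and Myl6b were followed through the differentiation of C2C12, a mouse cell line whose myoblasts fuse into multinucleate myotubes once serum is withdrawn. They were taken by symbol from a table of raw counts per gene and are 6 of its 55450 gene IDs. All 6 were among the 17912 genes that passed the filter on low counts, but Myl2 passed only through its myotube libraries and Myl3 only through the 3 overexpressor myotube libraries. A rise of these genes in the groups that let them pass was a condition of their being tested, and it is given below as a description.

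A myosin of the sarcomere is built from a pair of heavy chains, and the neck of each heavy chain carries 1 essential (alkali) and 1 regulatory light chain. The essential chains stiffen the neck and tune the speed of the motor, and the regulatory chains can be phosphorylated by myosin light chain kinases. Skeletal muscle replaces embryonic light chains with fast or slow ones as its fibres mature, so these genes are commonly read as markers of differentiation and of fibre type.

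The cells came from 3 lines, each sampled as myoblasts in growth medium and, on day 3 of differentiation, as myotubes, with 3 libraries of polyadenylated RNA per line and stage, lettered A, B and C. The control line was a sorted population that had received the pX458 vector alone, the plasmid that carries Cas9 and EGFP. The line labelled Dlk1-Dio3 overexpressor (clone 2-4) and the line labelled Dlk1-Dio3 knockout (clone 2-7) were each grown from a single cell after Cas9 editing guided by paired guide RNAs at the proximal promoter of Meg3, a noncoding RNA gene of the imprinted Dlk1-Dio3 cluster. The question was whether the amount of noncoding RNA from this cluster matters for muscle cell state and for differentiation.

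Each edited genotype was thus 1 clone, set against an uncloned population, and the effects of genotype and of clone cannot be told apart. The labels do not say whether the lettered libraries came from separate cultures beyond naming a triplicate, so the p-values measure the spread between these libraries, which may be partly technical. Meg3 had 5222 to 7763 counts in each of the 6 overexpressor libraries and 0 counts in all 12 libraries of the control and knockout lines, so it checks the overexpressor label and cannot check the knockout label. Library totals lay between 41544358 and 79140702 counts. A count of 3, the limit that a count of 0 allows, corresponded to 0.0375 to 0.0693 CPM (counts scaled to the TMM-adjusted library size), and a group whose 3 libraries all held 3 counts or fewer is called at the floor. Such limits cover counting error only.

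Of the essential chains, Myl1 (chromosome 1, 66924295 to 66945404, minus strand) is the fast chain, and its counts pool a long and a short form made from separate promoters. Myl4 (chromosome 11, 104550663 to 104595753, plus strand) is the embryonic and atrial chain, and Myl3 (chromosome 9, 110741861 to 110769798, plus strand) is the slow and ventricular chain. Myl6b (chromosome 10, 128494157 to 128498685, minus strand) is a further essential chain of muscle that resembles the nonmuscle chain Myl6, with 81.2% identity over 431 aligned transcript bases. Of the regulatory chains, Mylpf (chromosome 7, 127208890 to 127214298, plus strand) is the fast skeletal chain and Myl2 (chromosome 5, 122100951 to 122113472, plus strand) the slow and ventricular one. Positions are on GRCm38, the assembly also called mm10, and the counts cover all exons of each gene.

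A processed pseudogene of the fast chain, Mylf-ps (chromosome 12, 101221997 to 101222417), matched Myl1 transcripts at 99.3% over 421 bases. It was credited with 67.6% to 85.7% as many counts as Myl1 in every library, so the split of reads between both genes, and with it the level of Myl1, is uncertain. The share stood at 81.6% to 85% in overexpressor myotubes, at 71.6% to 74.7% in control myotubes and at 73.9% to 75.9% in knockout myotubes. Adding the Mylf-ps counts to Myl1 left every Myl1 call and direction in the 11 comparisons as it was. No other pair of members matched at more than 76.7%. On the opposite strand, Ccdc63 overlaps 60 exonic bases of Myl2 (0 to 9 counts per library) and Pth1r overlaps 95 exonic bases of Myl3 (12 to 72 counts per library), and the sources do not say whether counting used the strand.

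The promoter windows of the 4 members measurable in myoblasts are shown because these genes moved together in the knockout line and apart in the overexpressor line. They come from RefSeq for GRCm38.p6 and cover up to 250 bases before a RefSeq start, cut at the first exon of a coding GENCODE basic transcript. Capitals mark each CANNTG E-box, the hexamer class bound by MyoD-family factors, searched on both strands of the full 250 bases.
Myl1, chr1:66945144-66945306, minus strand: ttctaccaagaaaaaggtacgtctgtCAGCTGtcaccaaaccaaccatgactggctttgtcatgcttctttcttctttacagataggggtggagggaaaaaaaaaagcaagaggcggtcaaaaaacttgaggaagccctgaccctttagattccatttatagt
Mylpf, chr7:127211358-127211607, plus strand: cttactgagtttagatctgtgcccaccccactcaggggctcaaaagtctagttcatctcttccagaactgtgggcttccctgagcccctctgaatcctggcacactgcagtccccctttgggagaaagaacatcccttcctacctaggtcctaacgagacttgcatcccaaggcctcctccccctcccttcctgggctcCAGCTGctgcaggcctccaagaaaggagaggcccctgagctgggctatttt
Myl6b, chr10:128498686-128498935, minus strand: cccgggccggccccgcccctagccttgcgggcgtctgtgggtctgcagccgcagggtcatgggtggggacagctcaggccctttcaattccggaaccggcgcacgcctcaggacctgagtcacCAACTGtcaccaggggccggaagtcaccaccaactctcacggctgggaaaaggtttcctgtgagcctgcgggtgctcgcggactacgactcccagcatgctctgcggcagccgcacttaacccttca
Myl4, chr11:104550413-104550662, plus strand: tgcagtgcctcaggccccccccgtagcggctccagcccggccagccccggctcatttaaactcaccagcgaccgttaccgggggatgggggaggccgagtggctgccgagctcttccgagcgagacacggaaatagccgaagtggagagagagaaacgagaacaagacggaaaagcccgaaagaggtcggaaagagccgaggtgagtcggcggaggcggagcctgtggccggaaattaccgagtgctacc

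The windows of the fast chains Myl1 and Mylpf each held 1 CAGCTG, as did 1 of 2 windows searched for the slow chain Myl2, not printed here. This form was found in 13% of the 32817 promoter windows of 250 bases searched. Both Myl2 windows, between 122092474 and 122093188 on chromosome 5, lie upstream of the GENCODE start of Myl2 at 122100951. Their matches therefore describe RefSeq starts outside the Myl2 gene as annotated here. The Myl6b window held 1 CANNTG of another form, and the Myl4 window, which lies before the farthest upstream of several annotated starts, held none. For Myl1 only 1 window was searched, so the separate promoters of its long and short chains were not both covered. At least 1 CANNTG was found in 66.2% of all windows. No MEF2 motif was found in these 4 windows or in those of Myl2 and Myl3, against 2.92% of all windows, whereas the Myl3 window held 1 CArG box, present in 1.47%. On either strand, a TATAAA was present in the Myl1 window, in the Myl2 window with CAGCTG and in 12.4% of all windows. In the Myl1 and Myl2 windows it lay on the strand opposite to the gene. These matches describe letters only, and the files hold no measurement of binding.

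In control cells, the light chains rose with differentiation, from 16.9-fold for Myl6b to 129-fold for Myl4 among the 4 members with measurable myoblast levels. Myl1 was at 5.34, 8.42 and 4.54 CPM in control myoblasts A, B and C and at 716, 768 and 750 CPM in the control myotube libraries, 122-fold higher (log2 fold change 6.93, SE 0.23, adjusted p = 4.54e-13, edgeR's quasi-likelihood test with Benjamini-Hochberg adjustment over all 17912 genes, as for every adjusted p below). Myl4 went from 9.74, 15.1 and 8.55 CPM to 1454, 1501 and 1361 CPM, 7.01 log2 units higher (SE 0.24, adjusted p = 9.14e-13). Mylpf, the most abundant member, went from 41.7, 64.4 and 35.1 CPM to 3332, 3854 and 3228 CPM, 73.7-fold (adjusted p = 7.38e-12). No library overlapped between the stages in any of these. Myl6b stood at 12.8, 13.7 and 13.2 CPM in myoblasts, 5.92% of its myotube mean, and reached 227, 228 and 216 CPM, 16.9-fold (adjusted p = 1.53e-13).

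The slow and ventricular chains Myl2 and Myl3 were nearly silent before differentiation. Myl2 had 3, 0 and 0 counts in control myoblasts and 44, 66 and 80 counts in control myotubes, at least 20.96-fold above the floor of 3 counts per library. Myl3 had 0 counts in all 3 control myoblast libraries and 3, 5 and 3 counts in control myotubes, which stays too close to the floor for a fold to be given. All 4 members with measurable myoblast levels were thus higher in control myotubes, in a comparison where 33.9% of tested genes were called higher and 28.8% lower; Myl2 and Myl3 also passed the threshold, but only as genes that myotube counts had let through the filter. With library totals in place of TMM scaling, the share of calls that were higher was 37.9% in place of 54%, with these 4 members still higher.

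**Figure D1:**
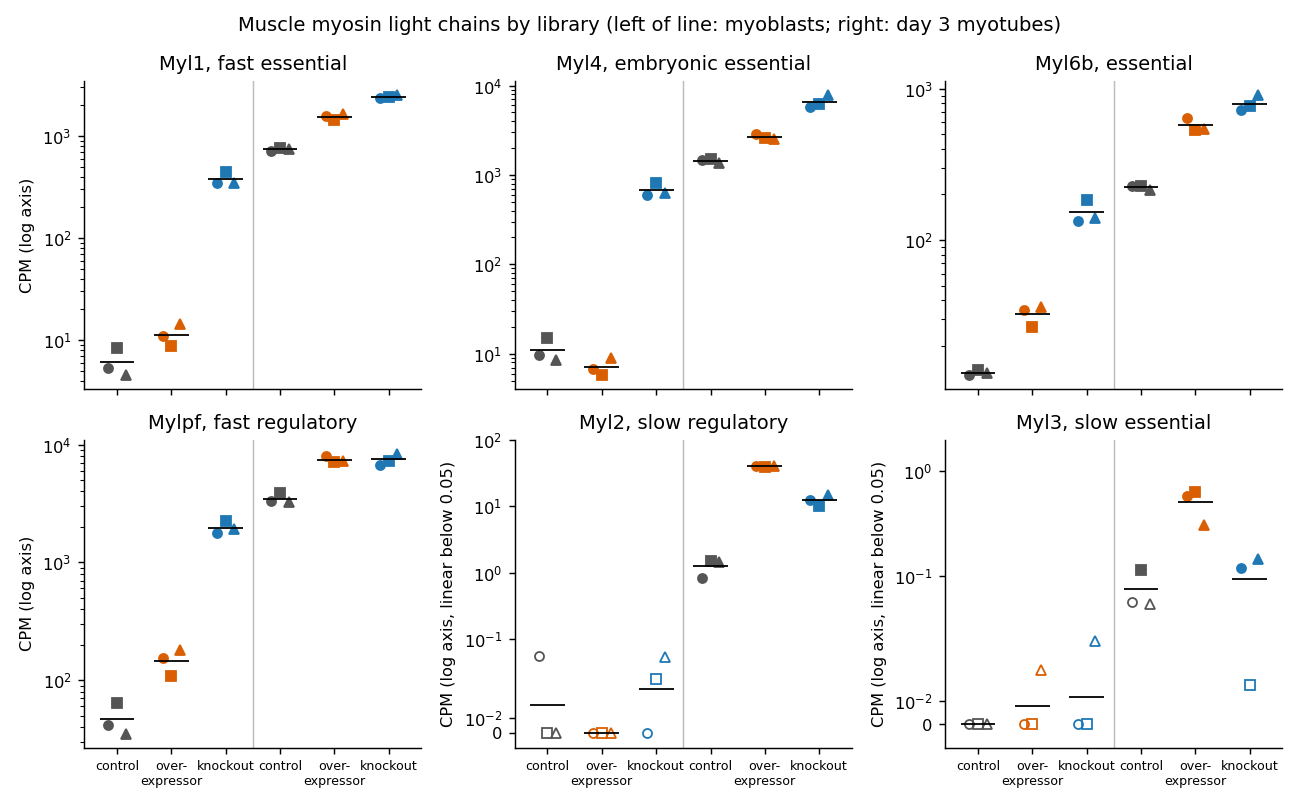
Level of each light chain in every library, in CPM on a log axis (for Myl2 and Myl3 linear below 0.05). Circles, squares and triangles are libraries A, B and C, bars are group means, and open symbols hold 3 counts or fewer; Myl2 and Myl3 sit at the floor in all myoblast groups, and the 4 other genes reach 47.5% to 68.3% of their control myotube means in knockout myoblasts.

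Per kilobase of exon, which is the scale on which genes can be set side by side, the fast regulatory chain dominated. Control myotubes held 3270 ± 316 CPM per kb of Mylpf, 359 ± 12.7 of Myl1, 310 ± 15.4 of Myl4 and 121 ± 3.62 of Myl6b, with 0.647 ± 0.191 of Myl2 and 0.0368 ± 0.0167 of Myl3 (SD, n = 3, union of exons). With the longest basic coding transcript as the length, Myl4 stood at 1530 ± 75.8 and Myl1 at 688 ± 24.3 CPM per kb, so the order of Myl1 and Myl4 depends on which exons are counted as the gene.

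Knockout myoblasts held 4 of the 6 light chains far above control myoblasts. Myl1, Myl4, Mylpf and Myl6b were 11.5-fold to 62-fold higher, and the 4 stood at 47.5% to 68.3% of their means in control myotubes, though 3.81-fold to 9.67-fold below those in myotubes of the knockout line itself. Myl1 measured 349, 443 and 347 CPM in knockout myoblasts, 5.95 log2 units over control (SE 0.22, adjusted p = 4.59e-12). Myl4 measured 605, 819 and 627 CPM (5.94, SE 0.23, adjusted p = 1e-11) and Mylpf 1771, 2232 and 1902 CPM (5.39, SE 0.24, adjusted p = 5.98e-11). Myl6b, at 133, 185 and 140 CPM, showed the smallest of the 4 differences (3.53, SE 0.14, adjusted p = 1.94e-12). In each of these genes every knockout library lay above every control library, and library B was the highest within both lines.

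Neither Myl2 nor Myl3 was among them. Myl2 had 0, 2 and 3 counts and Myl3 0, 0 and 2 counts in knockout myoblasts, both at the floor as in control, so no difference was detectable at this depth. Thus 4 of 6 members were higher and none lower, where 26.4% of all genes were higher and 26.6% lower. The median log2 difference of the 4 members was 5.66, against 0.02 over all genes tested.

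**Figure D2:**
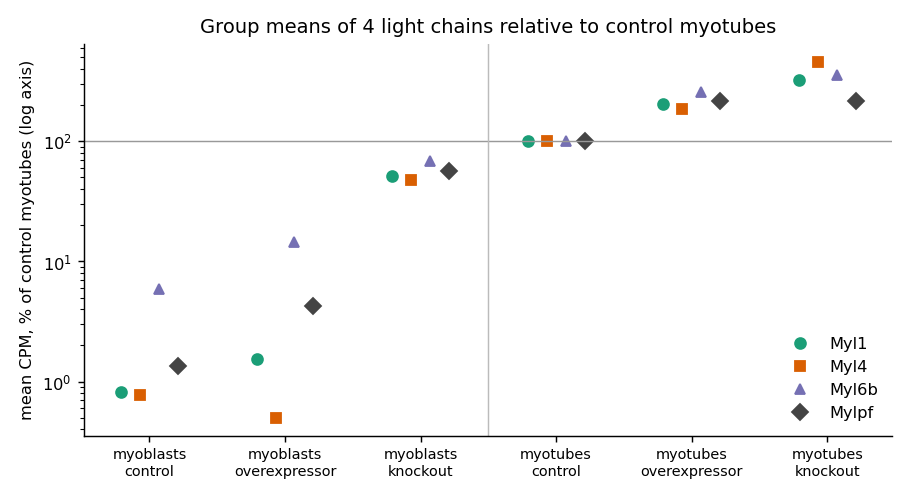
Group means of the 4 members measurable in myoblasts, as a percentage of the control myotube mean on a log axis. Knockout myoblasts lie at 47.5% to 68.3% and overexpressor myoblasts at 0.499% to 14.5%.

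The rest of the myosin machinery moved in the same comparison. Of 32 tested genes that encode other light chains, heavy chains, light chain kinases, assembly factors and thick filament proteins, 22 were higher and 3 lower in knockout than in control myoblasts, with a median of 1.36 over the 29 not at the floor. All 9 sarcomeric heavy chains were higher, among them embryonic Myh3 at 3202 ± 459 against 47.2 ± 12.0 CPM and slow Myh7 at 244 ± 47.3 against 2.59 ± 0.63 CPM (SD, n = 3). The slow heavy chain Myh7 was thus present where the slow and ventricular light chains Myl2 and Myl3 were at the floor. Myl6b, a further essential chain of muscle, was 11.5-fold higher there than in control myoblasts. Heavy chain paralogues are alike in sequence, and reads could be split between them. Unc45b and Smyd1, which fold and assemble myosin, were higher by 4.93 and 4.61 log2 units (SE 0.17 each, adjusted p = 3.47e-13 and 9.75e-13). The kinase genes Mylk4 (3.49, SE 0.11, adjusted p = 3.07e-14), Mylk (2.95, SE 0.13, adjusted p = 2.24e-12) and Mylk2 (0.87, SE 0.14, adjusted p = 2.85e-05) were also higher. The nonmuscle essential chain Myl6 was at 402 ± 4.79 and 370 ± 8.71 CPM (adjusted p = 0.21).

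Overexpressor myoblasts showed small differences that split the members. Mylpf measured 153, 108 and 179 CPM, above all 3 control libraries, 3.11-fold (log2 fold change 1.64, SE 0.21, adjusted p = 1.16e-05). Myl6b measured 34.3, 26.7 and 36.3 CPM, 2.45-fold higher (1.29, SE 0.14, adjusted p = 5.61e-07). Myl1 measured 10.9, 8.69 and 14.5 CPM, 1.85-fold higher (0.89, SE 0.20, adjusted p = 0.00203), with its lowest library just above control library B at 8.42 CPM.

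Myl4 went the other way. It measured 6.77, 5.76 and 9.04 CPM in overexpressor and 9.74, 15.1 and 8.55 CPM in control myoblasts, which differed by -0.64 log2 units (SE 0.21, adjusted p = 0.0254), and the libraries of both groups overlapped. The call was lost without control library B (-0.35, adjusted p = 0.158), without overexpressor library A (-0.60, adjusted p = 0.0799) or B (-0.50, adjusted p = 0.113), without the filter on low counts (-0.66, adjusted p = 0.0585) and when these groups alone were fitted (-0.67, adjusted p = 0.0574). Control library B also had the highest summed level of 5 myotube markers (Myog, Ckm, Acta1, Mymk and Tnnt3), 311.6 CPM against 226 and 207 CPM in A and C, and overexpressor library B the lowest of its group, 389.8 against 569.5 and 641.1 CPM; the part of this spread in the Myl4 result was not tested.

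In this comparison 3 members were higher and 1 lower, with Myl2 and Myl3 at the floor, where 20.7% of all genes were higher and 19.7% lower. Of the 32 related genes, 6 were higher and 9 lower, with a median of 0.07 over 28 not at the floor. The fast heavy chain Myh1 was higher (1.51, SE 0.27, adjusted p = 0.000327), Myh3 (-0.15, adjusted p = 0.587) and Myh7 (0.07, adjusted p = 0.849) were not called. Mylk2, the kinase that phosphorylates the fast regulatory chain in skeletal muscle, was higher at 16.5 ± 2.31 against 6.68 ± 0.70 CPM (adjusted p = 3.51e-07). Of the 7 kinase and phosphatase genes, 2 were higher and 3 lower. Mylk4 was at 2.48 ± 0.20 against 4.05 ± 0.69 CPM and Mylk at 2.26 ± 0.13 against 3.98 ± 0.73 CPM. Unc45b was lower (-0.67, SE 0.19, adjusted p = 0.00799) and Smyd1 higher (1.12, SE 0.16, adjusted p = 2.15e-05). Myl9, the regulatory chain of smooth muscle and nonmuscle cells, fell to 22.1 ± 2.10 from 162 ± 2.57 CPM (adjusted p = 1.93e-13).

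Set against each other, overexpressor and knockout myoblasts differed in the same 4 members, all lower in the overexpressor, where 25.7% of genes were higher and 26.9% lower. The log2 differences were -6.57 for Myl4 (SE 0.24, adjusted p = 3.96e-12), -5.06 for Myl1 (SE 0.21, adjusted p = 1.37e-11), -3.75 for Mylpf (SE 0.22, adjusted p = 1.32e-09) and -2.23 for Myl6b (SE 0.13, adjusted p = 2.57e-10), with no overlap between libraries.

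**Figure D3:**
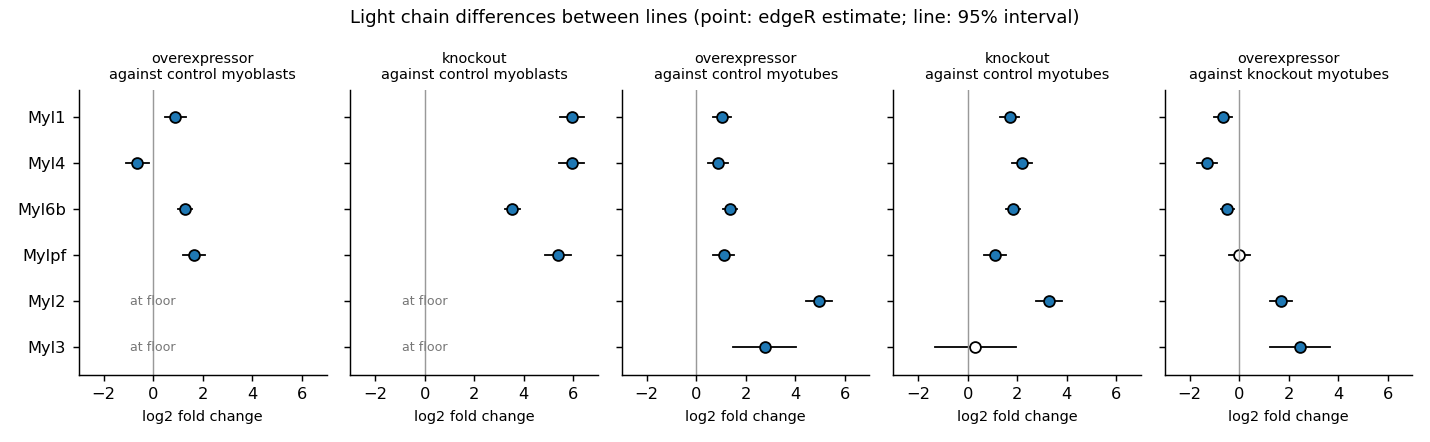
Log2 fold changes of each member between lines (point) with 95% intervals (line) from edgeR; filled points passed an adjusted p of 0.05 (Myl3 was tested only through its overexpressor myotube counts), and pairs with a group at the floor carry no point. In myoblasts the knockout values of 4 members lie between 3.53 and 5.95, and in the overexpressor only Myl4 is below 0.

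Ratios of a pair of members within a library do not depend on library scaling, and gene length cancels when they are compared between groups. The log2 ratio of Myl4 to Myl1 counts, embryonic to fast essential chain, was 0.87, 0.84 and 0.91 in control myoblasts A, B and C although Myl1 itself ranged from 4.54 to 8.42 CPM between those libraries. It was 0.79, 0.89 and 0.85 in knockout myoblasts, which overlapped the control values although Myl1 was 62.0-fold higher. In overexpressor myoblasts it was -0.69, -0.59 and -0.68, or 0.636 Myl4 counts per Myl1 count against 1.83 in control. The difference from control was -1.53 log2 units, against a pooled SD of 0.04 between replicates, and that from knockout was -1.50. These 3 against 3 comparisons were tested by an exact two-sided permutation test whose smallest possible p is 0.1, which both reached (0.12 after adjustment over 24 ratio comparisons).

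The balance of regulatory to essential fast chain also separated the myoblast lines. Mylpf to Myl1 was 2.95 ± 0.02 in control myoblasts, 3.69 ± 0.11 in those of the overexpressor and 2.38 ± 0.07 in those of the knockout (log2, SD, n = 3), with no overlap between any pair of groups (exact permutation p = 0.1 each, adjusted 0.12).

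With differentiation, the light chains of the overexpressor line rose as well. Its Myl4 rose from its lowest group mean, in myoblasts, to 2872, 2605 and 2523 CPM, 372-fold (log2 fold change 8.54, SE 0.26, adjusted p = 2.37e-13). Myl1 reached 1557, 1439 and 1619 CPM (7.08, SE 0.23, adjusted p = 3.71e-13), Mylpf 8030, 7161 and 7207 CPM (5.67, SE 0.24, adjusted p = 1.55e-11) and Myl6b 643, 534 and 539 CPM (4.14, SE 0.14, adjusted p = 1.3e-13). Myl2 went from 0 counts in all 3 overexpressor myoblast libraries to 2718, 3086 and 2848 counts, at least 611-fold above the floor, and Myl3 from 0, 0 and 1 to 39, 51 and 22 counts, at least 7.85-fold. The 4 members measurable in myoblasts were all higher, where 29.8% of genes were higher and 33% lower.

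In the knockout line Myl4, Myl1, Myl6b and Mylpf rose from a higher start than in control. Myl4 reached 5770, 6213 and 7831 CPM (3.27, SE 0.20, adjusted p = 1.82e-09), Myl1 2338, 2387 and 2507 CPM (2.67, SE 0.18, adjusted p = 5.87e-09), Myl6b 721, 763 and 908 CPM (2.39, SE 0.13, adjusted p = 1.32e-10) and Mylpf 6771, 7299 and 8397 CPM (1.93, SE 0.21, adjusted p = 1.03e-06). No library overlapped between the stages in these 4 genes. Myl2 rose to 732, 590 and 692 counts, at least 213.5-fold above the floor, from a start at the floor as in the other lines. Myl3 had 7, 1 and 7 counts, which overlapped the 0, 0 and 2 counts of the myoblasts, and its call (adjusted p = 0.0379) was lost under library totals (adjusted p = 0.0512), under a replicate block (adjusted p = 0.0566) and without knockout myoblast A (adjusted p = 0.103) or B (0.118) or knockout myotube A (0.0962) or C (0.122). The 4 members measurable in myoblasts were all higher, where 29.8% of genes were higher and 35.6% lower; with library totals the share of calls that were higher was 34% in place of 45.5%.

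The difference between these responses was tested as an interaction. The response of Myl4 was larger in the overexpressor than in the control line by 1.53 log2 units (SE 0.28, adjusted p = 0.000437), with 8.54 against 7.01. Those of Myl1 (0.16, SE 0.26, adjusted p = 0.695), Myl6b (0.06, SE 0.18, adjusted p = 0.832) and Mylpf (-0.53, SE 0.28, adjusted p = 0.159) were not called, with 95% intervals of -0.41 to 0.72, -0.33 to 0.45 and -1.14 to 0.07. Mylpf passed the threshold without control myoblast B (-0.83, adjusted p = 0.00982) or overexpressor myoblast B (-0.71, adjusted p = 0.045). Myl2 was also called (adjusted p = 0.00876), but both of its myoblast groups were at the floor, so no size is given, and without control myoblast A, the only control myoblast library with Myl2 counts, 1 member was called in place of 2, Myl2 being the one lost. Myl3 was not called. Of all genes, 16.6% had a larger and 22.3% a smaller response in the overexpressor, so that 42.7% of calls were larger, against 61% with library totals and 53.9% with DESeq2 size factors.

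In the knockout line the responses of 4 members were smaller than in control: Mylpf by -4.28 (SE 0.30, adjusted p = 1.65e-08), Myl1 by -4.26 (SE 0.26, adjusted p = 3.74e-09), Myl4 by -3.74 (SE 0.28, adjusted p = 2.94e-08) and Myl6b by -1.69 (SE 0.18, adjusted p = 9.12e-07). Myl2 (adjusted p = 0.158) and Myl3 (adjusted p = 0.342) were not called. Of all genes, 20.2% had a larger and 29.9% a smaller response. Among calls 40.4% were larger, against 52% with DESeq2 size factors.

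In myotubes both edited lines held more light chain RNA than control. In the overexpressor 5 members were higher, where 26.2% of genes were higher and 30.9% lower, and in the knockout the same 5 were higher, where 31% were higher and 37% lower. Myl3, the other member, was tested only because of its counts in overexpressor myotubes. Both comparisons share the same 3 control libraries. With library totals, 57.8% in place of 45.8% of overexpressor calls were higher. In these bulk samples more fused cells and more RNA per cell cannot be told apart.

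The 3 essential chains Myl4, Myl1 and Myl6b were 3.24-fold to 4.59-fold higher than control in the knockout and 1.85-fold to 2.56-fold higher in the overexpressor. Myl4 was 4.59-fold higher there (2.20, SE 0.19, adjusted p = 7.43e-08) and 1.85-fold higher in the overexpressor (0.89, SE 0.19, adjusted p = 0.000703). Myl1 was 3.24-fold higher in the knockout (1.69, SE 0.18, adjusted p = 5.26e-07) and 2.07-fold in the overexpressor (1.05, SE 0.17, adjusted p = 9e-05), and Myl6b 3.57-fold (1.84, SE 0.13, adjusted p = 1.59e-09) and 2.56-fold (1.36, SE 0.13, adjusted p = 7.75e-08). The direct comparison placed the overexpressor lower in Myl4 (-1.31, SE 0.19, adjusted p = 2.88e-05), Myl1 (-0.65, SE 0.17, adjusted p = 0.00474) and Myl6b (-0.48, SE 0.13, adjusted p = 0.00356), with no overlap between libraries in any of them.

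The fast regulatory chain was not called between the edited lines. Mylpf was 2.15-fold higher than control in the overexpressor (1.11, SE 0.20, adjusted p = 0.000227) and 2.16-fold in the knockout (1.11, SE 0.20, adjusted p = 0.00018). The difference between them was -0.004 (adjusted p = 0.99), with a 95% interval of -0.43 to 0.42.

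The slow regulatory chain was higher in overexpressor than in knockout or control myotubes. Myl2 was at 40.4, 38.6 and 39.6 CPM in overexpressor, 12.5, 9.88 and 14.5 CPM in knockout and 0.83, 1.51 and 1.44 CPM in control myotubes, and the libraries of the 3 lines did not overlap. It was 31.4-fold above control in the overexpressor (4.97, SE 0.25, adjusted p = 1.34e-10), 9.75-fold in the knockout (3.29, SE 0.24, adjusted p = 9.62e-09) and 3.22-fold higher in the overexpressor than in the knockout (1.69, SE 0.20, adjusted p = 5.51e-06). Myl3 had 39, 51 and 22 counts in overexpressor, 3, 5 and 3 in control and 7, 1 and 7 in knockout myotubes, and the overexpressor libraries lay above all others (log2 differences of 2.76, SE 0.60, and 2.45, SE 0.57), which describes the group that let the gene pass the filter. In the knockout it did not pass the test against control (0.31, SE 0.77, adjusted p = 0.729, 95% interval -1.31 to 1.94). Pth1r, which overlaps Myl3, had 12 to 23 counts in overexpressor and 62 to 72 in control myotubes.

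Between the edited myotubes, Myl2 was thus higher and 3 members were lower in the overexpressor, where 30.6% of genes were higher and 29.1% lower, leaving aside Myl3.

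Within myotube libraries, Myl2 to Mylpf, slow to fast regulatory chain, was -11.5 ± 0.44 in control myotubes, -7.56 ± 0.07 in those of the overexpressor and -9.26 ± 0.24 in those of the knockout (log2, SD, n = 3), and the groups did not overlap (exact permutation p = 0.1 each, adjusted 0.12). In overexpressor myotubes Myl2 made up 0.288% ± 0.013 of the muscle regulatory chains per kb, against 0.0198% ± 0.0055 in control and 0.0893% ± 0.0139 in knockout myotubes (SD, n = 3, union of exons). By the longest transcript of each gene these shares were 0.455%, 0.0313% and 0.141%. Myl4 to Myl1 was 0.95 ± 0.08 in control and 0.79 ± 0.13 in overexpressor myotubes, which overlapped (exact permutation p = 0.2, adjusted 0.229), and 1.44 ± 0.18 in knockout myotubes, above both (exact permutation p = 0.1 each, adjusted 0.12). Mylpf to Myl1 was 2.22 ± 0.11 in control and 2.28 ± 0.11 in overexpressor myotubes (exact permutation p = 0.6), against 1.63 ± 0.11 in knockout myotubes, below both.

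**Figure D4:**
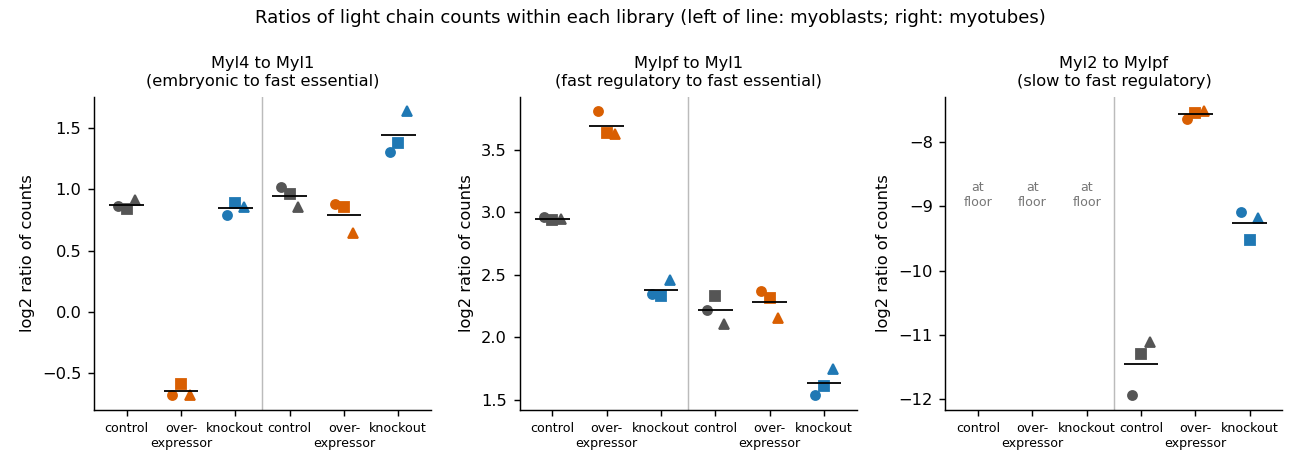
Log2 ratio of the counts of 2 light chains in every library (circles, squares and triangles: A, B and C; bars: group means). Overexpressor myoblasts lie at -0.69 to -0.59 for Myl4 to Myl1, apart from the other groups at 0.64 or above, and Myl2 to Mylpf is highest in overexpressor myotubes; no Myl2 ratio is drawn for myoblasts, where Myl2 is at the floor.

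As a share of the muscle essential chains per kb (Myl1, Myl3, Myl4 and Myl6b, union of exons), Myl4 made up 18.9% ± 2.86 in control myoblasts, 6.28% ± 0.53 in those of the overexpressor and 35.6% ± 0.44 in those of the knockout, and 39.2% ± 1.09, 35.4% ± 1.48 and 47% ± 2.5 in the myotubes of the same lines (SD, n = 3). With the longest basic coding transcript as the length, these shares were 38.35%, 15.26%, 59.16%, 62.72%, 58.8% and 69.79%, so that the shares depend on the length used, while overexpressor myoblasts were lowest and knockout myotubes highest by both.

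Of the 32 related genes, 23 were higher and 6 lower in knockout myotubes against control (median 0.95 over 31 not at the floor), and 16 were higher and 7 lower in overexpressor myotubes (median 0.30 over 31). Between the edited lines, 5 were higher and 16 lower in the overexpressor. The adult fast heavy chain Myh4 was at 107 ± 17.6 CPM in control myotubes, 590 ± 77.0 in those of the overexpressor and 665 ± 54.5 in those of the knockout (SD, n = 3), called in both against control (adjusted p = 1.22e-07 and 5.02e-08) and not between them (-0.17, adjusted p = 0.481). Myh7, the slow heavy chain, was at 406 ± 33.7, 527 ± 29.9 and 879 ± 60.8 CPM, called in the knockout (1.11, SE 0.17, adjusted p = 2.3e-05) and not in the overexpressor (0.37, adjusted p = 0.0626). The slow heavy chain was therefore lower in the overexpressor than in the knockout (-0.74, SE 0.16, adjusted p = 0.00127), while the slow regulatory chain Myl2 was higher. Mybpc2, the fast myosin binding protein C, was ordered like Myl2, at 0.864 ± 0.095, 35 ± 7.07 and 16.2 ± 1.11 CPM (overexpressor against knockout 1.11, SE 0.16, adjusted p = 1.09e-05), whereas the slow form Mybpc1 was at 29.9 ± 4.23, 18.7 ± 4.37 and 190 ± 7.01 CPM (-3.35, SE 0.20, adjusted p = 1.49e-09).

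Over all 18 libraries, the gene whose pattern was most like that of Myl1 was its pseudogene Mylf-ps, by the root mean square difference between log2 CPM profiles each centred on its own mean (0.0889, among 10986 genes). Next came Trim72, a muscle membrane repair gene (0.198), and Mypn, a sarcomeric Z-disc gene (0.216). Mylpf was nearest to Klhl41 (0.244), Hrc (0.293) and Alpk3 (0.314). Myl4 was nearest to the muscle glycogen phosphorylase gene Pygm (0.507), Myh7 (0.524) and Mypn (0.55). Myl6b was nearest to the receptor gene Erbb3 (0.174), followed by Tmem38a (0.299) and Fabp3 (0.336). For Myl2 the nearest was Mybpc2 (0.605), then Chrne (1.01) and Ptgds (1.23), and for Myl3 Aldh3b1 (0.592), Rhobtb2 (0.658) and Mttp (0.659). Myl3 held at most 7 counts in any library outside overexpressor myotubes and at most 0.638 CPM in those. Its profile depends heavily on the prior count of 2, so its nearest genes say little. Among the members, Myl1 lay closest to Mylpf (0.65) and Myl4 (0.651). The 18 profiles share libraries and scaling, and these distances are descriptions.

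Markers of the cell types the cultures could hold were measured beside the members. The 5 myotube markers summed to 207 to 312 CPM in control myoblasts, 390 to 641 in those of the overexpressor and 6340 to 7960 in those of the knockout, and to 8660 to 9740, 14300 to 16800 and 22200 to 27500 CPM in the myotubes. The 5 myoblast markers (Myod1, Myf5, Pax7, Des and Cdh15) summed to 1400 to 1550, 2760 to 3330 and 3440 to 3910 CPM in myoblasts and to 2580 to 2710, 5600 to 6790 and 7850 to 10400 CPM in myotubes, in the same order of lines. Des, the intermediate filament gene of muscle, made up most of these sums, at 913 ± 51.6 CPM in control myoblasts and 8133 ± 1227 in knockout myotubes (SD, n = 3). The progenitor genes Pax7 and Myf5 fell with differentiation in control (-2.90, SE 0.10, adjusted p = 2.7e-14, and -2.04, SE 0.19, adjusted p = 7.26e-08), and Pax7 was lower in knockout than in control myoblasts (-1.21, SE 0.09, adjusted p = 3.33e-09), at 18.2 ± 0.43 against 42.1 ± 1.82 CPM. Of the 5 myoblast markers, 3 were higher, 1 was lower and 1 was not called in that comparison. Myf5 was at 23.9 ± 1.09 against 25.5 ± 1.61 CPM. In overexpressor against control myoblasts 4 were higher and 1 lower, with Pax7 at 31.1 ± 0.92 CPM. The 5 fibroblast markers (Pdgfra, Col1a1, Col1a2, Dcn and Lum) summed to 12000 to 13400 CPM in control myotubes, against 2300 to 2860 in overexpressor and 2460 to 2750 in knockout myotubes. The collagen genes Col1a1 and Col1a2 made up most of the control sum, at 6184 ± 544 and 6400 ± 145 CPM. Dcn and Lum were at 48.2 ± 4.7 and 2.48 ± 0.64 CPM in knockout and at 46.6 ± 6.7 and 2.53 ± 0.33 CPM in control myotubes. All 5 fibroblast markers were lower in overexpressor than in control myotubes, with Lum at the floor in the overexpressor, and 3 of 5 were lower in knockout myotubes. Their part in the higher light chain levels of the edited myotubes was not tested. In myoblasts the fibroblast sums were 3570 to 3620, 2710 to 2830 and 2340 to 2770 CPM.

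Since Myl2, Myl3 and Myl4 are also cardiac chains, cardiac markers were checked. The atrial light chain Myl7 was at the floor in all 6 groups, as was Nppa in 5 of them, and the 7 cardiac markers summed to 26.5 to 30.9 CPM in control, 40 to 47.8 in overexpressor and 83.6 to 99.6 CPM in knockout libraries of the myotube stage. Their sums in myoblasts were 35 to 37.7, 41.3 to 47.9 and 61.3 to 67.2 CPM. Of the 4 tested, Gata4, Nkx2-5 and Tnni3 were higher than in control in both overexpressor and knockout myotubes. Gata4 was at 26.6 ± 2.56, 35.2 ± 2.92 and 68.0 ± 6.17 CPM, Nkx2-5 at 2.38 ± 0.28, 6.78 ± 1.04 and 14.3 ± 1.95 CPM and Tnni3 at 0.33 ± 0.16, 2.03 ± 0.16 and 8.09 ± 0.41 CPM in control, overexpressor and knockout myotubes (SD, n = 3). Nppb, which encodes a natriuretic peptide, passed the filter on low counts only through overexpressor libraries. As a description, it had 34 to 58 counts in overexpressor myotubes and was at the floor in control myotubes. The 5 smooth muscle markers summed to 170 to 186 CPM in control, 326 to 387 in overexpressor and 654 to 787 in knockout libraries of the myotube stage, and 4 of 5 were higher in both edited lines than in control, all but Myh11. Actg2, a smooth muscle actin gene, was at 10.4 ± 3.42, 88.3 ± 10.6 and 379 ± 37.4 CPM. In myoblasts the sums were 362 to 384, 246 to 276 and 737 to 770 CPM. The part of the cardiac and smooth muscle markers in the light chain differences was not tested. The sums of the adipocyte, endothelial and immune lists were at most 0.455, 0.669 and 1.82 CPM, with Adipoq, Plin1 and Cd3e at the floor in every group.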

How the data were processed

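Polyadenylated RNA was sequenced from 18 C2C12 libraries in 6 groups of 3. The authors deposited raw counts per Ensembl gene. Per the submitters' processing notes, the tools named were STAR 2.7.9a, featureCounts, Subread 2.0.3, FastQC 0.11.7 and DESeq2 1.32.0, with the build mm10; their settings, the release of the annotation and whether strand was used are not given in the sources used here. A table of variance-stabilised values was not used. Symbols, positions and lengths came from the GENCODE M21 annotation of GRCm38 (55190 IDs matched), and near-identical transcripts were sought with blastn 2.17.0.

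Groups follow the sample titles and labels. The test was edgeR's (version 4.0.16, R 4.3.3): TMM factors (0.895 to 1.08), filterByExpr, robust quasi-likelihood dispersions, 1 fit of all 18 libraries (12 residual degrees of freedom), 11 contrasts, and Benjamini-Hochberg adjustment over 17912 genes with a threshold of 0.05. The filtered genes held at least 99.97% of each library's counts. Ratios are log2 of counts with 0.5 added and were compared by exact permutation tests over libraries; shares are of CPM per kb. The script was tested on simulated data. Alternatives were DESeq2 1.42.0, other scalings, no filter, the compared groups alone, a replicate block, each library left out, other lengths, and, added after the data were seen, the Mylf-ps counts and the basic coding length.

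The members and gene lists were chosen with earlier results of these data known. The genes named are the 6 members, a set of genes of the myosin list (other light chains, heavy chains, kinases and phosphatase, assembly, thick filament binding) that work with them directly, the cell type markers, and the 3 genes nearest to each member in pattern, among genes with a mean of 5 CPM or more in some group.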

Additional observations from a re-analysis of the deposited data

Results flagged for a closer look

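The response to differentiation differed between lines, by the interaction test of edgeR, for these members. That of Myl4 was larger in the overexpressor than in the control line by 1.53 log2 units (SE 0.28, adjusted p = 0.000437). In the knockout line the responses were smaller than in control, with differences of -4.26 for Myl1 (SE 0.26, adjusted p = 3.74e-09), -3.74 for Myl4 (SE 0.28, adjusted p = 2.94e-08), -1.69 for Myl6b (SE 0.18, adjusted p = 9.12e-07) and -4.28 for Mylpf (SE 0.30, adjusted p = 1.65e-08). With Mylf-ps counts added to those of Myl1, the Myl1 difference kept its direction and call.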

How the results depend on the processing

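The member counts per comparison stayed within 1.5 times under every alternative run, except that the members called in the overexpressor response against control numbered 1 without control myoblast A, which lost Myl2, and 1 to 3 over the libraries left out. Besides the calls of Myl2, Myl3, Myl4 and Mylpf given above, which changed with single libraries or settings, estimates near 0 turned sign. Mylpf in overexpressor against knockout myotubes was 0.098 with library totals, 0.025 without the filter, 0.013 with these groups alone and -0.072 to 0.086 over libraries left out. The same held for the interaction values with the overexpressor for Myl1 (-0.15 to 0.37) and Myl6b (-0.057 to 0.22), and Myl3 in knockout against control myotubes (-0.10 to 0.84).

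The replicate letter was used as a block although the samples share only a letter: of 45 same-letter correlations of deviations from group means, from -0.358 to 0.264, 4 were over 0.1. The block changed 1 member call, that of Myl3 in knockout myotubes against myoblasts (2.64, adjusted p = 0.0566).

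With Mylf-ps counts added to Myl1, Myl4 to Myl1 in overexpressor myoblasts differed by -1.58 from control and -1.551 from knockout, and Mylpf to Myl1 in overexpressor against control myotubes turned to -0.020. With 5 counts added, Myl3 to Myl1 in overexpressor against control myotubes was 0.65, against 1.56. Its size thus depends on the added count, since Myl3 held only 3 to 5 counts in control myotubes. Myl3 also passed the filter only through its overexpressor myotube libraries, so the ratio is a description. The Myl4 shares, in the order control, overexpressor and knockout myoblasts and then myotubes, were 38.35%, 15.26%, 59.16%, 62.72%, 58.8% and 69.79% with basic coding lengths. With longest transcripts those that moved were 5.64%, 30.56%, 33.61%, 30.21% and 41.12% from overexpressor myoblasts on, and with Mylf-ps counts 5.33%, 26.85%, 29.49%, 25.66% and 36.45%. With Myl6 in the pool the first 5 groups were at 1.86%, 1.05%, 27.23%, 35.72% and 33.45%. Myl2 shares in control, overexpressor and knockout myotubes were 0.0313%, 0.455% and 0.141% with longest or basic transcripts. Library totals moved the median of all genes by over 0.1 log2 units in several comparisons, for example to -0.168 from 0.070 in control myotubes against myoblasts. Depth limits Myl2 and Myl3 in myoblasts, where no level above 3 counts per library was seen.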

Other observations

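Of the nonmuscle and smooth muscle light chains, which lie outside the muscle set, Myl9 had group means in the line order of Myl4 at both stages. Those of Myl6 and Myl12a were in the line order of Myl1, and those of Myl12b were in another order. Myl9 was at 162 ± 2.57 CPM in control myoblasts, 22.1 ± 2.10 in those of the overexpressor and 203 ± 4.31 in those of the knockout, and at 24.1 ± 3.54, 126 ± 13.2 and 228 ± 15.0 CPM in the myotubes of the same lines (SD, n = 3). The response of Myl9 to differentiation was larger than in control by 5.26 log2 units in the overexpressor (SE 0.14, adjusted p = 1.36e-14) and by 2.92 in the knockout (SE 0.14, adjusted p = 1.4e-11, edgeR's quasi-likelihood test). Myl12b had its highest group mean in overexpressor myoblasts, at 49.0 ± 2.61 CPM against 26.7 ± 1.83 in control (0.88, SE 0.10, adjusted p = 9.69e-07). Mylk, the kinase of smooth muscle and nonmuscle myosin, was at 134 ± 9.59 CPM in knockout, 19.9 ± 1.47 in overexpressor and 16.6 ± 0.04 in control myotubes (knockout against control 3.02, SE 0.13, adjusted p = 5.18e-13).

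Erbb3, whose profile was the nearest to that of Myl6b, lies on the same chromosome, at 128567523 to 128589652 on chromosome 10, and Myl6b at 128494157 to 128498685.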
